A study of Homo sapiens with 4 samples.

Results

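RN7SK, RMRP, RPPH1 and the 7SL genes RN7SL1, RN7SL2 and RN7SL3 encode short, folded noncoding RNAs that were followed here in K562-U2AF1S34F cells given SF1-8. The members were taken by symbol: an entry of the gene table belonged to the group when one of its gene names was one of the 6 symbols. All 6 symbols were found, in 5 of the 64873 entries of the table, because RN7SL2 and RN7SL3 share an entry. K562 is an established human erythroleukemia line, and the cells of every library overexpressed the S34F mutant of the splicing factor U2AF1, so that no library here came from cells without the mutant. SF1-8 is a small molecule that binds the UHM domain of U2AF1, the surface through which U2AF1 pairs with U2AF2. The 2 control libraries (DMSO 1 and DMSO 2) came from cells given the solvent, and the other 2 (SF1-8 1 and SF1-8 2) from cells given SF1-8 at 30 uM for 48 h. Total RNA was depleted of ribosomal RNA before sequencing. The sources do not say which promoter drove the mutant, whether the line was 1 clone, or whether the libraries of a group came from separate cultures, so the p-values measure the spread between these libraries, which may be technical.

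All 6 RNAs are made by RNA polymerase III and work inside particles with proteins. The 7SK RNA, from RN7SK, holds the elongation kinase P-TEFb inactive together with HEXIM proteins and is protected by LARP7 and MEPCE. The 7SL RNA is the scaffold of the signal recognition particle, which brings ribosomes that make secreted and membrane proteins to the endoplasmic reticulum. RMRP and RPPH1 are the RNA subunits of RNase MRP and RNase P, related ribonucleases that share most of their proteins: RNase MRP cuts the precursor of ribosomal RNA, and RNase P removes the leader of precursor tRNAs. In rRNA-depleted total RNA these RNAs remain and are counted beside messenger RNA, and together they can take up enough of a library to move the scale on which other genes are read.

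The sequences of RN7SK, RMRP and RPPH1 are shown because they set which entries can be told apart by reads. They are those of GENCODE version 29 (GRCh38), written as DNA from 5′ to 3′. RN7SK lies at chr6:52995621-52995948 on the plus strand and is 328 bases long, of which the first 300 are shown. Its capitals mark GATC, the letters of the 7SK stem to which HEXIM proteins are known to bind. The transcript holds GATC 3 times, read on its own strand, and 10.2% of the 5046 other transcripts of 300 to 360 bases hold it at least as often.
RN7SK: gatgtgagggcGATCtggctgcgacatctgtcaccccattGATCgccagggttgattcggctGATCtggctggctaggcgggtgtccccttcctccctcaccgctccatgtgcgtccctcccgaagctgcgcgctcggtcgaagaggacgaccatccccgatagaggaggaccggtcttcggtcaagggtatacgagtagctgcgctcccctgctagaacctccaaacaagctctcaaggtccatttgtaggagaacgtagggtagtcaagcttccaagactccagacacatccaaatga

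RMRP (chr9:35657751-35658018, minus strand) is 268 bases long and RPPH1 (chr14:20343075-20343407, minus strand) 333 bases, of which the first 300 are shown. They are shown without capitals, since the longest run of letters they have in common is 9 bases and no window of 50 bases is shared. A read of 50 bases or more from one of them cannot match the other exactly.
RMRP: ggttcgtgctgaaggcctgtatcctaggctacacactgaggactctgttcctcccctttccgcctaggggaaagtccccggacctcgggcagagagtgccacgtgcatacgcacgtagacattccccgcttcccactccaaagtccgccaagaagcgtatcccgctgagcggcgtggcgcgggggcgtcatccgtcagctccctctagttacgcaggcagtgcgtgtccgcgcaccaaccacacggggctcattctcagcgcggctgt
RPPH1: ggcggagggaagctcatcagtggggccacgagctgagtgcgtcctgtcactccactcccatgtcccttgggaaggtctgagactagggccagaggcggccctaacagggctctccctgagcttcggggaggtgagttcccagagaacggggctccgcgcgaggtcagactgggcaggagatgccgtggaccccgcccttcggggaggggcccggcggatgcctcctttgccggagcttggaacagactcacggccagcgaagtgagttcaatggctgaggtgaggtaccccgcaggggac

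The 3 genes for 7SL lie on chromosome 14, RN7SL1 at chr14:49586580-49586878 on the plus strand, and RN7SL3 (chr14:49853616-49853914) and RN7SL2 (chr14:49862550-49862849) on the minus strand. They are near copies of each other. A read from a stretch they share cannot be placed on 1 of these genes, and how the authors' counting treated it is not given in the sources used here, so the division of 7SL between RN7SL1 and the RN7SL3/RN7SL2 entry is uncertain.

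The entries of the table are not all as narrow as the genes. The RN7SK entry (chr6:52995620-52995950) also names AL162581. The RPPH1 entry (chr14:20343048-20343685) also names the noncoding gene AL355075, which lies on the same strand as RPPH1. The RN7SL3/RN7SL2 entry (chr14:49853615-49864288) also names the lincRNA AL627171 and spans 10674 bases. FPKM, the deposited measure per length and depth, is therefore low for the RN7SL3/RN7SL2 entry against its count. The deposited counts were taken as estimates, since 4 is the commonest value above 0 and what 1 count stands for is not given in the sources used here, so no counting error was computed, and precision rests on the spread between libraries. Ranked by mean count, the 5 entries held places 4 to 8 of the 62778 entries that name a gene, from 359914 for RN7SK to 246922 for RPPH1. Over named genes, the counts of DMSO 1 added up to 45331271 and those of the other 3 libraries to between 64075515 and 67311734.

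Stromal markers differed between the groups and between libraries of a group. The K562 markers, a list of erythroid genes together with PRAME, were present, all 12 of 12 above 0 in each library. Their summed FPKM over 9 entries was 599 and 556 in the controls and 565 and 544 in the treated libraries. PRAME was the largest part of these sums, with FPKM of 235 and 197 in the controls and 235 and 192 in the treated libraries. The 8 stromal markers, a list made for another cell type than K562, had a summed FPKM of 10.2 in DMSO 1 and 5.01 in DMSO 2. The sum was 2.57 in SF1-8 1 and 0.594 in SF1-8 2, and COL1A1 led at 5.39 in DMSO 1. The paper lists COL1A1, COL1A2 and COL3A1 among the genes down-regulated by SF1-8 in these cells. The median log2 fold change of the 8 markers was -2.64, and none of the 8 passed, with 5 lower with SF1-8 at a p under 0.05 before adjustment. THY1 alone had a log2 fold change above 0, at 0.15, and its FPKM was highest in SF1-8 1. None of the 8 was at 0 in the DMSO libraries, while LUM was at 0 in both SF1-8 libraries and DCN and POSTN in SF1-8 2. The 9 lymphoid and monocyte markers summed to 12.2, 9.73, 9.52 and 9.42 in the same order, with MS4A1 and CD79A at 0 in both DMSO libraries. Of the 6 lymphoid and monocyte entries tested, 3 had a log2 fold change above 0, and the median was 0.004. The stromal and the lymphoid and monocyte sums were thus higher in both DMSO libraries than in either SF1-8 library and highest in DMSO 1, which was also lowest in depth and, as given next, in the small RNAs, and the part of markers and depth in the small RNA values was not tested.

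As a sum, the 5 entries held more of the counts in both SF1-8 libraries than in either DMSO library, and DMSO 1 stood below the other 3. Together they drew 1.32% of all counts in DMSO 1 and 2.53% in DMSO 2, against 3.07% in SF1-8 1 and 2.62% in SF1-8 2. The mean was 1.92% ± 0.862 for the controls and 2.85% ± 0.318 for the treated libraries (SD, n = 2 each), a difference of 0.924 percentage points (exact two-sided permutation test, p = 0.3333, the smallest value that 2 against 2 libraries can give). Without DMSO 1 the difference was 0.315 points, and without DMSO 2 it was 1.53 points. The DMSO libraries differed from each other by more than DMSO 2 differed from either SF1-8 library. Entries of ribosomal RNA loci, which remained after depletion, held 11.7% and 14.9% of the counts in DMSO 1 and DMSO 2 and 14.5% and 12.4% in SF1-8 1 and SF1-8 2. They were thus also lowest in DMSO 1, but their group means were close, 13.3% ± 2.26 and 13.5% ± 1.47 (SD, n = 2 each).

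Per length, the same 5 entries weighed more. They held 12.4% of the summed FPKM in DMSO 1 and 20.7% in DMSO 2, against 23.9% in SF1-8 1 and 21.2% in SF1-8 2, a difference of 5.97 percentage points between group means (exact two-sided permutation test, p = 0.3333). On a scale where values must sum to a constant, a larger share for these entries leaves a smaller share for the others. When FPKM was rescaled to the same sum in every library (TPM), the median log2 fold change of all 26167 entries tested was -0.13, and it was -0.05 when the 5 entries were left out before rescaling. With the TMM factors used for the test, which set aside entries with extreme ratios, the median was -0.01 both with the 5 entries and without them. The TMM factor of DMSO 1 was 1.05 with these entries and 1.04 without them.

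**Figure D1:**
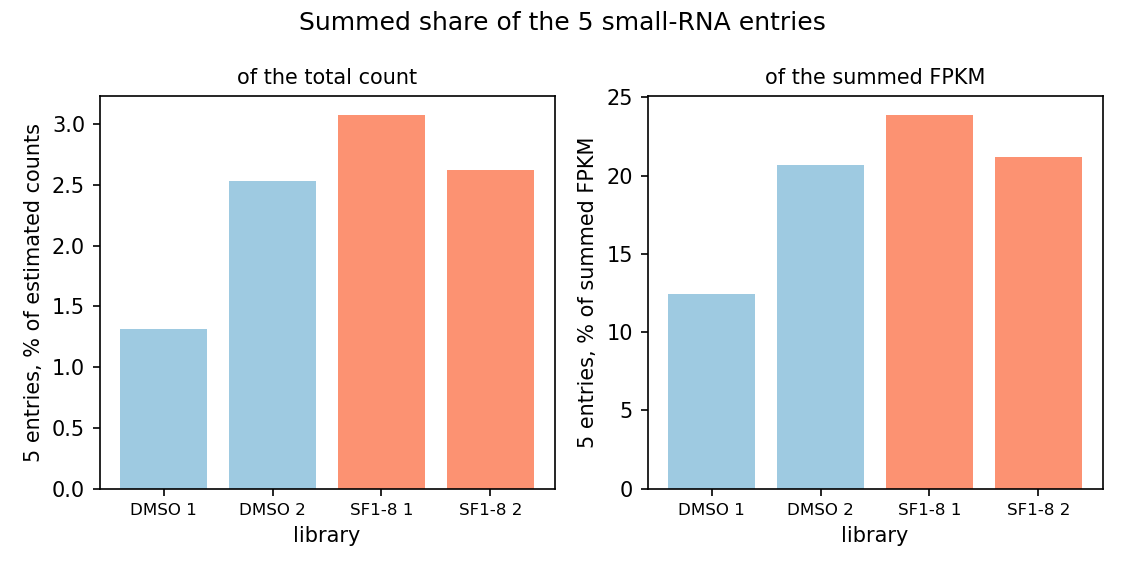
Bars give the summed share of the 5 entries in each library, as percent of the total estimated count (left) and of the summed FPKM (right), with blue for DMSO and red for SF1-8. DMSO 1 is lowest on both scales, at 1.32% and 12.4%, and DMSO 2 is close below SF1-8 2.

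RN7SK, the RNA that restrains P-TEFb, took 0.351% of the counts in DMSO 1 and 0.559% in DMSO 2, then 0.779% in SF1-8 1 and 0.621% in SF1-8 2. Its FPKM was 8312 and 13390 in the DMSO libraries and 18939 and 14888 in the SF1-8 libraries. Both SF1-8 libraries were above both DMSO libraries. The log2 fold change of SF1-8 against DMSO was 0.66 (SE 0.268, 95% interval -0.02 to 1.34), and the adjusted p was 0.970 (quasi-likelihood test of edgeR, Benjamini-Hochberg adjustment). Of the 5 entries it had the smallest gap between the DMSO libraries, 1.70-fold on the scale of TMM-scaled CPM, and the smallest p.

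RMRP, the RNA of the rRNA-processing enzyme RNase MRP, took 0.302% of the counts in DMSO 1 and 0.602% in DMSO 2, then 0.634% in SF1-8 1 and 0.617% in SF1-8 2. Its FPKM was 8853 and 17813 with DMSO and 19049 and 18281 with SF1-8, the highest of the 5 entries in every library. DMSO 2 lay close to both SF1-8 libraries, and DMSO 1 lay 2.13-fold under DMSO 2 in TMM-scaled CPM. The log2 fold change was 0.50 (SE 0.340, 95% interval -0.37 to 1.36).

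RPPH1, the RNA of RNase P, took 0.188% and 0.405% of the counts in DMSO 1 and DMSO 2, and 0.506% and 0.472% in SF1-8 1 and SF1-8 2. Its FPKM was 2309 and 5037 with DMSO and 6377 and 5869 with SF1-8, per length of an entry that is longer than the gene. The groups did not overlap, and the gap within DMSO, 2.31-fold in TMM-scaled CPM, was the widest of the 5. Its log2 fold change was also the largest in size, 0.75 (SE 0.377, 95% interval -0.21 to 1.71).

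RN7SL1, one source of the signal recognition particle's 7SL RNA, took 0.253% and 0.510% of the counts in DMSO 1 and DMSO 2, and 0.580% and 0.455% in SF1-8 1 and SF1-8 2. Its FPKM was 6627 and 13538 with DMSO and 15623 and 12070 with SF1-8. Here the groups overlapped, because DMSO 2 was above SF1-8 2. The log2 fold change was 0.47 (SE 0.366, 95% interval -0.46 to 1.40).

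The joint entry of RN7SL3 and RN7SL2 took 0.222% and 0.458% of the counts in DMSO 1 and DMSO 2, and 0.575% and 0.459% in SF1-8 1 and SF1-8 2. Its FPKM was 747 and 1557 with DMSO and 1982 and 1561 with SF1-8. DMSO 2 and SF1-8 2 were nearly equal, and on the TMM scale the groups overlapped. The log2 fold change was 0.63 (SE 0.372, 95% interval -0.31 to 1.58).

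**Figure D2:**
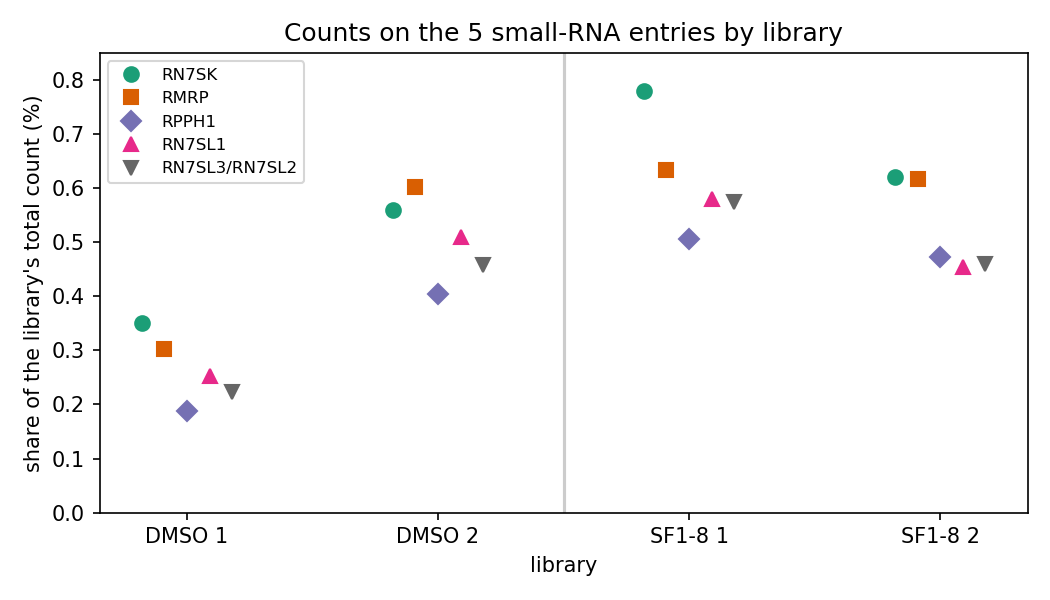
Points give the share of each library's total estimated count (%) taken by each of the 5 entries, with a symbol per entry and a grey line between the DMSO and the SF1-8 libraries. All 5 entries are lowest in DMSO 1, from 0.188% to 0.351%, and RN7SK in SF1-8 1 is highest at 0.779%.

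All 5 entries passed the filter on low counts, and none passed the test at an adjusted p under 0.05, and each had an adjusted p of 0.970. Over all 26167 entries tested, 11 passed (0.0420%), of which 5 were higher with SF1-8 (0.0191%). Before adjustment, 0 of 5 members had a p under 0.05, against 4.33% of all entries, and DESeq2 also called 0 of 5, with 1 of 5 at an unadjusted p under 0.05 and with 164 entries called in all (0.652%), 67 of them higher with SF1-8 (0.266%). The intervals of all 5 log2 fold changes reached from below 0 to above 1.3, so no change and a log2 change of 1 both lay inside them. In TMM-scaled CPM both SF1-8 libraries were above both DMSO libraries for 3 of the 5 entries (RN7SK, RMRP and RPPH1), which held for 17.3% of all entries tested. As share of the total count this was so for 4 of 5, against 12.1% of all entries, and in FPKM also for 4 of 5, against 14.2%. In bulk RNA, a change in the amount of an RNA per cell and a change in how many cells hold it cannot be told apart.

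What the 5 entries shared most plainly was the gap between the 2 control libraries. DMSO 2 exceeded DMSO 1 by a log2 difference of 1.20 for RPPH1, 1.14 for RN7SL3/RN7SL2, 1.11 for RN7SL1, 1.09 for RMRP and 0.77 for RN7SK in TMM-scaled CPM. A gap at least this large was found in 6.24% (for RPPH1) to 11.1% (for RN7SK) of all entries tested, and in 0.986% to 2.63% of the entries with a mean FPKM of at least 10. The SF1-8 libraries lay closer together, with SF1-8 1 above SF1-8 2 by 1.05-fold to 1.30-fold. Set against DMSO 2 alone, the mean of the SF1-8 libraries was higher by a log2 difference of 0.31 for RN7SK, 0.27 for RPPH1, 0.16 for RN7SL3/RN7SL2, 0.05 for RMRP and 0.01 for RN7SL1.

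The size of the difference therefore turned on which control library was kept. Fitted without DMSO 1, the log2 fold changes ran from 0.02 for RN7SL1 to 0.32 for RN7SK, with 0.27 for RPPH1, 0.17 for RN7SL3/RN7SL2 and 0.05 for RMRP. Fitted without DMSO 2, they ran from 1.10 for RN7SK to 1.48 for RPPH1, and 2 entries, RPPH1 and RMRP, passed, each with an adjusted p of 0.0450 in the edgeR test, against 0.929 or more under each of the 13 alternatives that kept all 4 libraries and 0.889 or more without any other library. In that fit 21 of 28489 entries passed (0.0737%), 15 of them higher with SF1-8 (0.0527%), and DMSO 1, as the lone control, was taken to vary like the SF1-8 libraries. Without SF1-8 1 the values were 0.27 to 0.69, and without SF1-8 2 they were 0.54 to 0.83. All 5 fold changes were above 0 in each of these 4 fits.

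**Figure D3:**
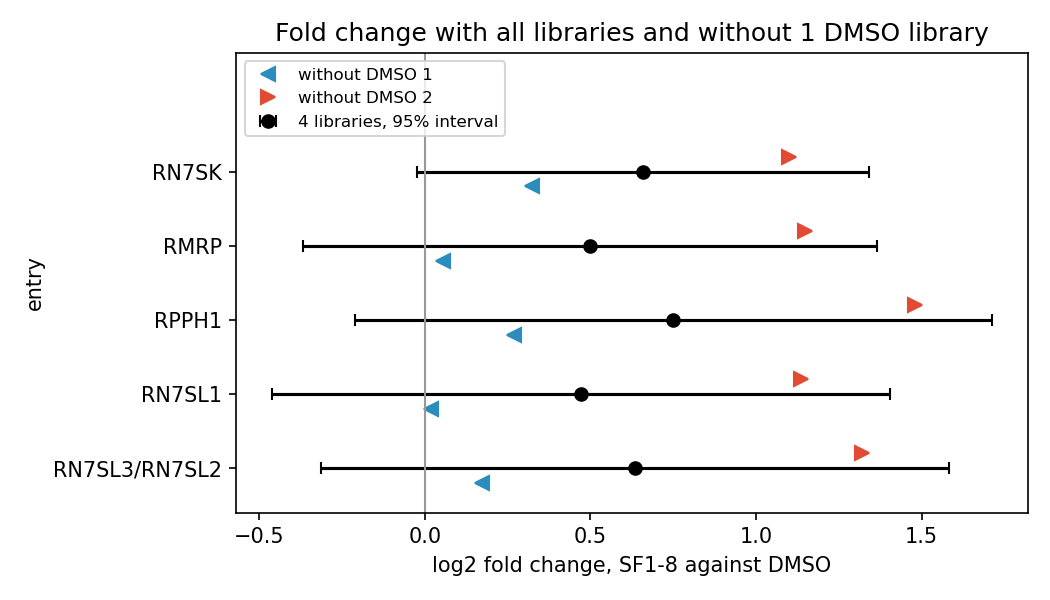
Black points and bars give the log2 fold change of SF1-8 against DMSO with its 95% interval from all 4 libraries, and triangles the value without DMSO 1 (blue) or without DMSO 2 (red). Every interval spans 0, and for RPPH1 the value moves from 0.27 to 1.48 with the control library that is left out.

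The proportions among the 5 entries moved less than their sum. RN7SK made up 26.7% of their joint count in DMSO 1 and 22.0% in DMSO 2, then 25.3% in SF1-8 1 and 23.7% in SF1-8 2. RPPH1 made up 14.3%, 16.0%, 16.4% and 18.0% in the same order, RMRP between 20.6% and 23.8%, RN7SL1 between 17.3% and 20.1%, and RN7SL3/RN7SL2 between 16.9% and 18.7%. RPPH1 was thus lowest in DMSO 1 also within the group, and RN7SK was highest there.

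Among 3043 entries with a mean FPKM of at least 10, likeness to RN7SK was measured as the root mean square difference of log2 TMM-scaled CPM over the 4 libraries, after centring each entry on its own mean. The nearest were the histone gene H4C11 (0.0912), the pseudogene RN7SKP203 (0.0951) and the small nucleolar RNA gene SNORA12 (0.103). H4C11 had FPKM of 289 and 434 in the controls and 553 and 491 in the treated libraries. The other members ranked 9 (RN7SL3/RN7SL2), 10 (RN7SL1), 18 (RMRP) and 29 (RPPH1) by this measure. The values rest on 4 libraries and share the gap between the DMSO libraries.

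The human genome holds many processed copies of 7SL and 7SK, and their entries show where reads of the genes may also land. Of the 947 entries that name a single RN7SL or RN7SK pseudogene, 596 were listed at 0 in every library and 136 were tested. None of the 136 passed, and 4 had an unadjusted p under 0.05, against 4.33% of all entries. These are named after their values were seen: RN7SL4P, RN7SL5P and RN7SKP80 were higher with SF1-8, and RN7SL809P was lower (log2 fold change -1.05). Of the 136, 54 had a log2 fold change above 0, and the median was -0.17, against -0.01 for all entries. The 6 with a mean FPKM of at least 10 all had log2 fold changes above 0, with a median of 0.69, and the next in level reached a mean FPKM of 5.88.

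RN7SL4P, a 7SL copy at chr3:15738515-15738809, was the highest in level. Its FPKM was 1162 and 1917 with DMSO and 2622 and 2574 with SF1-8, low in DMSO 1 like the genes. The log2 fold change was 0.77 (SE 0.256, adjusted p = 0.970 in the edgeR test). It was 0.43 without DMSO 1 and 1.23 without DMSO 2, where it passed with an adjusted p of 0.0450 in the edgeR test. RN7SKP203, a 7SK copy at chr2:76445079-76445410 that shares a run of 143 bases with RN7SK, had FPKM of 345 and 655 in the controls and 827 and 710 in the treated libraries, with a log2 fold change of 0.63, which was 0.22 without DMSO 1 and 1.23 without DMSO 2. Both copies followed the order of their parent RNAs in having DMSO 1 lowest and SF1-8 1 highest.

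RN7SL5P, a 7SL copy at chr9:9442060-9442380, did not. Its FPKM was 284 in DMSO 1 and 139 in DMSO 2, against 793 in SF1-8 1 and 570 in SF1-8 2. DMSO 2, not DMSO 1, was lowest, and both SF1-8 libraries were above both controls. Its entry begins upstream of the pseudogene (chr9:9389373-9442380). The log2 fold change was 1.73 (SE 0.346), with an adjusted p of 0.755 in the edgeR test. DESeq2 gave an adjusted p of 1.702e-05, the other alternatives that kept all 4 libraries gave 0.160 to 0.882, and leaving out each library in turn gave log2 fold changes of 1.34 to 2.28 with no adjusted p under the threshold.

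For the genes of the proteins that carry these RNAs, the median log2 gap of DMSO 2 over DMSO 1 was -0.05 in the 7SK list and -0.01 in both the 7SL and the RNase P and MRP lists. Of the 14 tested genes of the 7SK particle and P-TEFb, none passed in either direction, 8 had a log2 fold change above 0, the median was 0.03, and 5 were lowest in DMSO 1. HEXIM2, which binds 7SK to inhibit P-TEFb, had FPKM of 0.312 and 0.340 in the controls and 0.744 and 0.504 in the treated libraries (log2 fold change 0.96, SE 0.353). MLLT1, a subunit of the super elongation complex, had 7.52 and 5.48 with DMSO and 4.98 and 4.07 with SF1-8 (-0.49, SE 0.165). The 2 most abundant of the list, the helicase gene DDX21 and the splicing factor gene SRSF2, had log2 fold changes of 0.07 (SE 0.058) and 0.06 (SE 0.464). SRSF2 was uneven inside each group, with FPKM of 46.3 and 21.3 for the controls and 22.0 and 46.5 for the treated pair. Its log2 gap of DMSO 2 over DMSO 1 was -1.04, opposite in sign to that of the 5 entries.

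Of the 8 genes for proteins of the signal recognition particle and its receptor, none passed, 6 were above 0, and the median log2 fold change was 0.08. SRP68, part of the largest protein pair on 7SL, stood at FPKM 8.17 and 7.63 in the controls and 13.7 and 8.73 in the treated libraries (log2 fold change 0.54, SE 0.219). SRP9, which binds the Alu end of 7SL, had 135 and 119 with DMSO and 54.9 and 144 with SF1-8, so that SF1-8 1 alone was low (-0.33, SE 0.426). SRP19, in an entry with APC, was at 0.36, and the receptor gene SRPRA at 0.00.

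Of the 12 tested genes for RNase P and RNase MRP proteins, none passed, 8 were above 0, and the median was 0.07. POP4 and RPP21, the latter in an entry with TRIM39, had the largest log2 fold changes, each 0.28, and POP7 and RPP40, the most abundant, had 0.05 and 0.03. DMSO 1 was lowest for 2 of the 12, against 28.4% of all entries tested and 45.0% of those with a mean FPKM of at least 10.

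The polymerase that transcribes these RNAs was read out in the same way. Of the 13 subunit genes in the list used here, which is not the whole enzyme, none passed, 8 were above 0, and the median log2 fold change was 0.04. POLR3G, the paralog of POLR3GL, stood at FPKM 2.67 and 5.11 under DMSO, against 12.8 and 12.6 under SF1-8, with both SF1-8 libraries above both controls (log2 fold change 1.71, SE 0.330, adjusted p = 0.707 in the edgeR test). POLR3F, a subunit of the initiation subcomplex, had 2.80 and 2.19 with DMSO and 4.20 and 3.72 with SF1-8 (0.70, SE 0.171, adjusted p = 0.970 in the edgeR test). These were the 2 of 13 with an unadjusted p under 0.05, and the abundant subunits POLR3K and POLR3A had log2 fold changes of -0.04 and 0.10.

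Of 20 genes for initiation and control of RNA polymerase III, none passed, 15 were above 0, and the median was 0.06. POU2F1, the octamer-binding factor, had FPKM of 6.63 in DMSO 1 but 0.780 in DMSO 2, with 6.20 in SF1-8 1 and 6.29 in SF1-8 2, so that its log2 fold change of 0.81 (SE 0.872) came with DMSO 2 alone being low. SNAPC2, a subunit of the complex that binds the promoters of small nuclear RNA genes, was at 0.51, while GTF3C6 and the repressor gene MAF1 were at -0.04 and 0.08.

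RMRP and RPPH1 each start close to a protein-coding gene on the other strand, and the regions shown lie near the starts of both genes. These regions are shown because they let a reader compare the elements near 2 of the genes. The member genes themselves were not among the RefSeq promoter windows (GRCh38.p14). The windows of the neighbours, CCDC107 (chr9:35658042-35658291, plus strand) and PARP2 (chr14:20343385-20343634, plus strand), are printed up to the neighbour's RefSeq start. The PARP2 stretch begins inside RPPH1, whose first base is 20343407, and runs past the GENCODE start of PARP2 at 20343582. Capitals mark the octamer ATTTGCAT, read as ATGCAAAT on this strand, and TATAA or its reverse TTATA.
CCDC107: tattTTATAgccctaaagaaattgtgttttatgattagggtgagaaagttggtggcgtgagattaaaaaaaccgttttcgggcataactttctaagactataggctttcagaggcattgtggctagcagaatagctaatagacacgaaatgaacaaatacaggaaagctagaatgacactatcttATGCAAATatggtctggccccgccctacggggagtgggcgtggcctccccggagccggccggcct
PARP2: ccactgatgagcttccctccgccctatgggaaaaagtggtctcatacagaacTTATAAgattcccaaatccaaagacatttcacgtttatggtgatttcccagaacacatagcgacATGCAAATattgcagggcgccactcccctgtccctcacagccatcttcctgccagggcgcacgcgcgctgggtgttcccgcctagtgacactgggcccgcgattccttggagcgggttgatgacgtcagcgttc

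Upstream of RMRP, 27 bases lie between the gene and the TATA letters and 208 bases between the gene and the octamer. Upstream of RPPH1 these are 29 and 93 bases, and TATAA is read there on both strands, in overlap. Searched on both strands of the 300-base windows, the octamer occurs in 1.77% of 35116 windows, and TATAA in 20.4%. CCDC107 had FPKM of 2.04 and 2.02 in the controls and 2.32 and 1.66 in the treated libraries (log2 fold change 0.00). PARP2 had 3.83 and 3.78 with DMSO and 3.25 and 3.30 with SF1-8 (-0.19, SE 0.114). Neither neighbour showed the gap between the controls, with log2 differences of 0.06 each. RPS29, which overlaps RN7SL1 on the other strand, had a log2 fold change of -0.04 and a gap of 0.35. The strand setting of the authors' counting is not given in the sources used here, so reads of such pairs cannot be told apart.

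Other small structured RNAs, a list of spliceosomal, Cajal body, vault and Y RNAs and the like, were closer to the members than the proteins were. Of 36 tested entries none passed, 27 had a log2 fold change above 0 and the median was 0.26, against -0.01 over all entries. Several of these entries also name a protein-coding or host gene, such as PHB2 with SCARNA12 and TMEM107 with SNORD118. Their values are therefore not those of the small RNA alone. The median log2 gap of DMSO 2 over DMSO 1 was 0.57. DMSO 1 was the lowest library for 24 of the 36, against 28.4% of all entries and 45.0% of those with a mean FPKM of at least 10. It was lowest for 59.1% of the 44 at that level that span 200 to 400 bases. Among entries tested at any level, it was lowest for 44.1% of those annotated only as snRNA and 37.0% of those annotated only as snoRNA. The 44 are not independent of the members, since they include RN7SK, RMRP and RN7SL1. They also include the pseudogenes RN7SL4P, RN7SKP203, RN7SKP80, RN7SKP71 and RN7SKP255, like those members lowest in DMSO 1. SCARNA2, a guide RNA of Cajal bodies, stood at FPKM 412 and 695 under DMSO and at 620 and 572 under SF1-8 (log2 fold change 0.12). The U1 entry that names RNU1-2 had 176 and 592 with DMSO and 466 and 587 with SF1-8 (0.46). In both, DMSO 1 was low and DMSO 2 was above at least one SF1-8 library.

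The largest log2 fold changes in size on that list were those of BCYRN1, a primate RNA derived from an Alu element (-1.71, SE 0.969), and VTRNA2-1 (1.51, SE 0.779). BCYRN1 was high in DMSO 1 alone, with FPKM of 4.36 against 0.518 to 0.917 in the other libraries. VTRNA2-1 had FPKM of 0.664 and 1.36 in the controls and 2.20 and 3.81 in the treated libraries. Both entries were near the floor, with TMM-scaled CPM of 0.17 to 1.10 for BCYRN1 and 0.14 to 0.66 for VTRNA2-1. Before adjustment, 3 entries were higher at a p under 0.05, and they are named after their values were seen: RNU12, SCARNA10 and RNU4-2. RNU4-2, which encodes the U4 RNA, stood at FPKM 78.7 and 170 under DMSO and at 235 and 286 under SF1-8 (log2 fold change 1.08, SE 0.387).

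**Figure D4:**
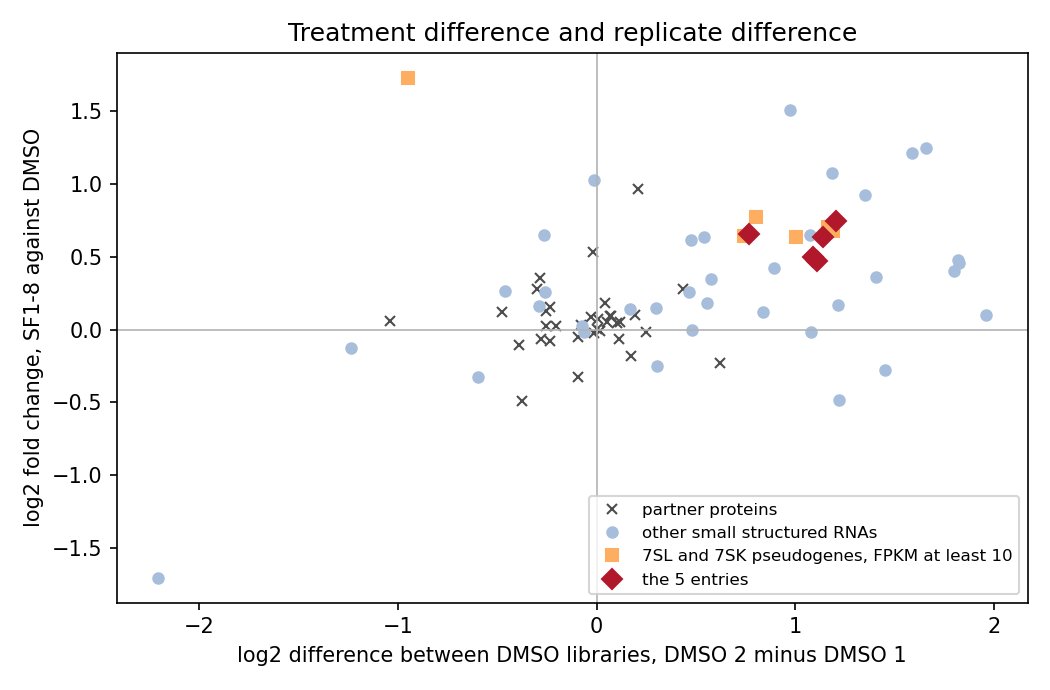
Each point is an entry, placed by the log2 difference of DMSO 2 minus DMSO 1 (horizontal) and the log2 fold change of SF1-8 against DMSO (vertical), both in TMM-scaled values. The 5 entries (red) lie between 0.77 and 1.20 on the horizontal axis, near 5 of the 6 pseudogenes with a mean FPKM of at least 10 (squares), while partner proteins (crosses) spread around 0 on both axes and RN7SL5P stands apart at a negative gap with a fold change of 1.73.

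Length classes, chosen after the values were seen, gave smaller gaps than the members'. The 44 entries of 200 to 400 bases with a mean FPKM of at least 10 had a median log2 gap of DMSO 2 over DMSO 1 of 0.19, with 30 of 44 higher in DMSO 2. The 2821 entries over 1000 bases at that level had a median gap of 0.03, with 59.8% higher in DMSO 2. Tested at any level, entries annotated only as snRNA (102) had a median gap of 0.18, and those annotated only as snoRNA (119) one of 0.13.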

How the data were processed

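RNA-seq was done on rRNA-depleted total RNA from 2 DMSO and 2 SF1-8 libraries, grouped by the sample labels. The authors deposited 1 table with an FPKM value, normalized for length and depth, and an estimated count for each entry and library. As deposited, the counts hold whole numbers only, 4 occurs most often among those above 0, and 0.0001 stands for 0 in the FPKM columns. The submitters' processing notes name cutadapt, FastQC, Bowtie2, HISAT2, StringTie and hg38, without roles. Totals ran from 45331271 to 67311734 over entries that name a gene. Entries that name no gene held 0.358% to 0.421% of the counts and were left out.

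Counts were scaled by TMM, filtered by filterByExpr and tested by edgeR 4.0.16's quasi-likelihood test in R 4.3.3 over 26167 entries, with Benjamini-Hochberg adjustment and a threshold of 0.05. A standard error is the fold change divided by the root of the F statistic. Summed shares were compared by an exact permutation test. Alternatives were DESeq2 1.42.0, limma 3.58.1 on log2(FPKM + 1) and log2(FPKM + 0.1), other scalings and filters, counts divided by 4, the replicate number as a block, and leaving out each library. The scripts were tested on simulated data. Sequences were aligned with Biopython 1.88. Those of the 7SL genes are not reported here. From each list the text names every gene past the threshold, the 2 largest fold changes in size and the 2 highest mean FPKM, and of the pseudogenes the 3 with the highest mean FPKM. The members and lists were chosen with earlier results of these data known. The mitochondrial ribosomal RNAs MT-RNR1 and MT-RNR2 are listed at 0 in every library and were not used.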

Additional observations from a re-analysis of the deposited data

How the results depend on the processing

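Under the 13 alternatives that kept all 4 libraries, the 5 log2 fold changes stayed above 0 and none passed the threshold, with ranges of 0.54 to 0.70 for RN7SK, 0.44 to 0.60 for RMRP, 0.40 to 0.56 for RN7SL1, 0.57 to 0.73 for RN7SL3/RN7SL2 and 0.71 to 0.87 for RPPH1. Leaving out each library in turn gave 0 to 2 members called, the 2 being RPPH1 and RMRP without DMSO 2, with log2 fold changes of 0.269 to 1.48 for RPPH1 and 0.0547 to 1.15 for RMRP, and 0 to 30 of all entries called. Against 11 entries called by edgeR's quasi-likelihood test, of 1132 at an unadjusted p under 0.05, DESeq2 called 164 and edgeR without a filter on low counts 31. The limma fits on log2(FPKM + 1) and log2(FPKM + 0.1) called 0 each, with 1493 and 1499 at an unadjusted p under 0.05, and limma on TPM called 1 with the members and 1 without them. The median log2 fold change of all entries was -0.0575 by total count without TMM, -0.0437 by total count with the members left out, -0.132 on TPM and -0.0493 on TPM with the members left out. The share of summed FPKM, in place of counts, differed by 5.97 percentage points. The TPM settings and the total count without the members were chosen after seeing the data. The causes of these shifts were not tested.

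The replicate numbers share no stated culture or day, and the deviations of DMSO 1 and SF1-8 1 from their group means correlated at r = 0.0165 over 26167 entries. With the number as a block in edgeR's fit, 0 entries were called, with 971 at an unadjusted p under 0.05, and the log2 fold changes were 0.87 for RPPH1, 0.73 for RN7SL3/RN7SL2, 0.70 for RN7SK, 0.60 for RMRP and 0.56 for RN7SL1. With 2 libraries a group, leaving out either control library moved each of the 5 fold changes by over 1.5 times, and leaving out SF1-8 1 moved that of RN7SL1 from 0.47 to 0.27.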
